A study of Mus musculus with 13 samples.

Results

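Immediate early genes were followed through 11 tumors of the mammary gland and 2 glands free of cancer, from mice of a HER2/Neu oncogene line. The set held 10 genes, Fos, Fosb, Jun, Junb, Egr1, Ier2, Ier3, Dusp1, Atf3 and Myc, taken by symbol from a count table of 24421 gene symbols. Each symbol matched 1 row, and all 10 passed the filter on low counts in both fits, with at least 31 reads per gene and library.

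The libraries came from female mice of the FVB/N-TgN line labelled (MMTV-HER2/neu) 202Mul/J, with the genotype entry "Wild type". In this line a rat HER2/Neu cDNA is driven in breast epithelium by the viral promoter of MMTV, the mouse mammary tumor virus. The strain label covers the glands as well, but whether they carried the transgene cannot be told from these labels. Primary untreated tumors (n = 3) and the glands (n = 2) were from mice on plain water, and primary stavudine tumors (n = 3) were from mice given 1 mg/mL of the reverse transcriptase inhibitor stavudine to drink, estimated at 200 mg/kg per day. Recurrent 17-DMAG tumors (n = 3) had grown back after a complete response to the HSP90 inhibitor 17-DMAG, injected at 20 mg/kg 3 times per week, and recurrent 17-DMAG plus stavudine tumors (n = 2) had done so in mice that also drank stavudine. By the study's methods, injections went on during regrowth until a tumor reached the end point size and the mouse was killed. The time from the last injection to death is not given in the sources used here. Stavudine was begun at 2 months of age or once tumors had appeared. The study's supplement describes the primary stavudine tumors as having developed in stavudine-treated mice. Which start applied to each recurrent 17-DMAG plus stavudine tumor is not given in the sources used here, nor are the ages at which tissue was taken.

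Immediate early genes are those that a cell transcribes within minutes of a growth factor, stress or wounding signal, without first making new protein. The signal runs through MAP kinases to factors already bound at the promoters, such as SRF with its ELK partners and CREB, and the RNAs are short-lived. Several products are transcription factors (the FOS and JUN proteins pair into AP-1, while EGR1 and MYC bind other sites), and DUSP1 removes phosphate from MAP kinases and so limits the signal. HER2 itself signals through this route, and excision and handling of tissue before freezing are also known to induce these genes. Here the tumors were frozen after the mice had been killed with CO2. The time from death to freezing is not given in the sources used here, so its part in any value that follows was not tested.

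Promoter sequence is shown for the members that hold the core of the CREB and ATF binding site, the best known element that answers to cyclic AMP and calcium, because it was the searched motif found in the most members. RefSeq promoters (GRCm38.p6, from 250 bases before to 50 bases after the annotated start) were at hand for 7 members, all but Egr1, Ier2 and Myc. The core TGACGT, read on both strands, was present in 3 of these 7 (Atf3, Dusp1 and Fos), against 7.51% of 32851 promoters in the table. The stretches below run 5′ to 3′ along the gene, with the core and its reverse complement in capitals. The palindrome in Dusp1 holds overlapping matches on both strands.
Fos, chr12:85473804-85473849, plus strand: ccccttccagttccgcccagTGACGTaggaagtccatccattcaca
Atf3, chr1:191183334-191183361, minus strand: tggaagctattaatagcattACGTCAgc
Dusp1, chr17:26508588-26508683, minus strand: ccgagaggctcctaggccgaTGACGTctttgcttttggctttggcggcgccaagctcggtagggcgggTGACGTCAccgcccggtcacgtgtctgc

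The core lay 66 to 61 bases before the Fos start and 8 to 3 bases before the Atf3 start. In Dusp1 it was found 3 times, between 191 and 136 bases before the start. The AP-1 site TGANTCA was in 0 of the 7 windows (7.81% of all promoters) and the SRF site known as the CArG box was in 0 of the 7 (1.63%). The EGR site GCGNGGGCG was found in Fosb (5.55% of all promoters). The TATA box letters TATAAA were found in Fos and Junb (13.6% of all promoters). In Fos they lay 33 to 28 bases before the start, whereas in Junb they lay after the annotated start, at bases 1 to 6. These are matches of letters in a short window and describe no binding. Sites more than 250 bases before the start were not searched, so a count of 0 does not show that a promoter lacks the site.

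Library totals ran from 39921388 to 56887708 counts. Levels are given as CPM, read counts scaled to the total multiplied by its TMM factor, which was 0.493 in gland 2 and 0.999 to 1.12 elsewhere. The floor of detection was set at 3 counts, or 0.0587 to 0.107 CPM, below every value of every member. All 5 epithelial markers were detected in all 11 tumors. The tissue mixture differed between libraries. The 5 milk protein genes summed to 537198 CPM in gland 2 against 21078 CPM in gland 1. In recurrent 17-DMAG replicate 1 the 5 fibroblast markers summed to 5572 CPM, against at most 1801 CPM in any other tumor, the 5 macrophage markers to 343 against at most 209.6 CPM, and the 4 endothelial markers to 242 against at most 130.2 CPM. In RNA from whole tissue, fewer cells of a type and less RNA per cell cannot be told apart. The labels number the libraries of a group as replicates, and each is taken here as a tumor or gland of its own. Whether any came from the same mouse is not given in the sources used here. The p-values measure the spread between libraries.

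Per kilobase of exon, Ier3 was the highest member, with a median of 110.3 CPM per kb over the tumors, and Fosb the lowest, with 0.2695 CPM per kb. Myc (31.53), Ier2 (27.49), Junb (22.28) and Jun (19.74 CPM per kb) lay between, followed by Egr1 (8.08), Fos (5.555), Dusp1 (4.842) and Atf3 (2.585 CPM per kb). Neighbors in this order from Myc to Jun overlapped in their ranges over the tumors, whereas the Ier3 range (54.26 to 191.1 CPM per kb) lay above that of every other member. The genes that classically mark an acute response, Fos and Fosb, thus lay in the lower part of the set in these tumors.

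**Figure D1:**
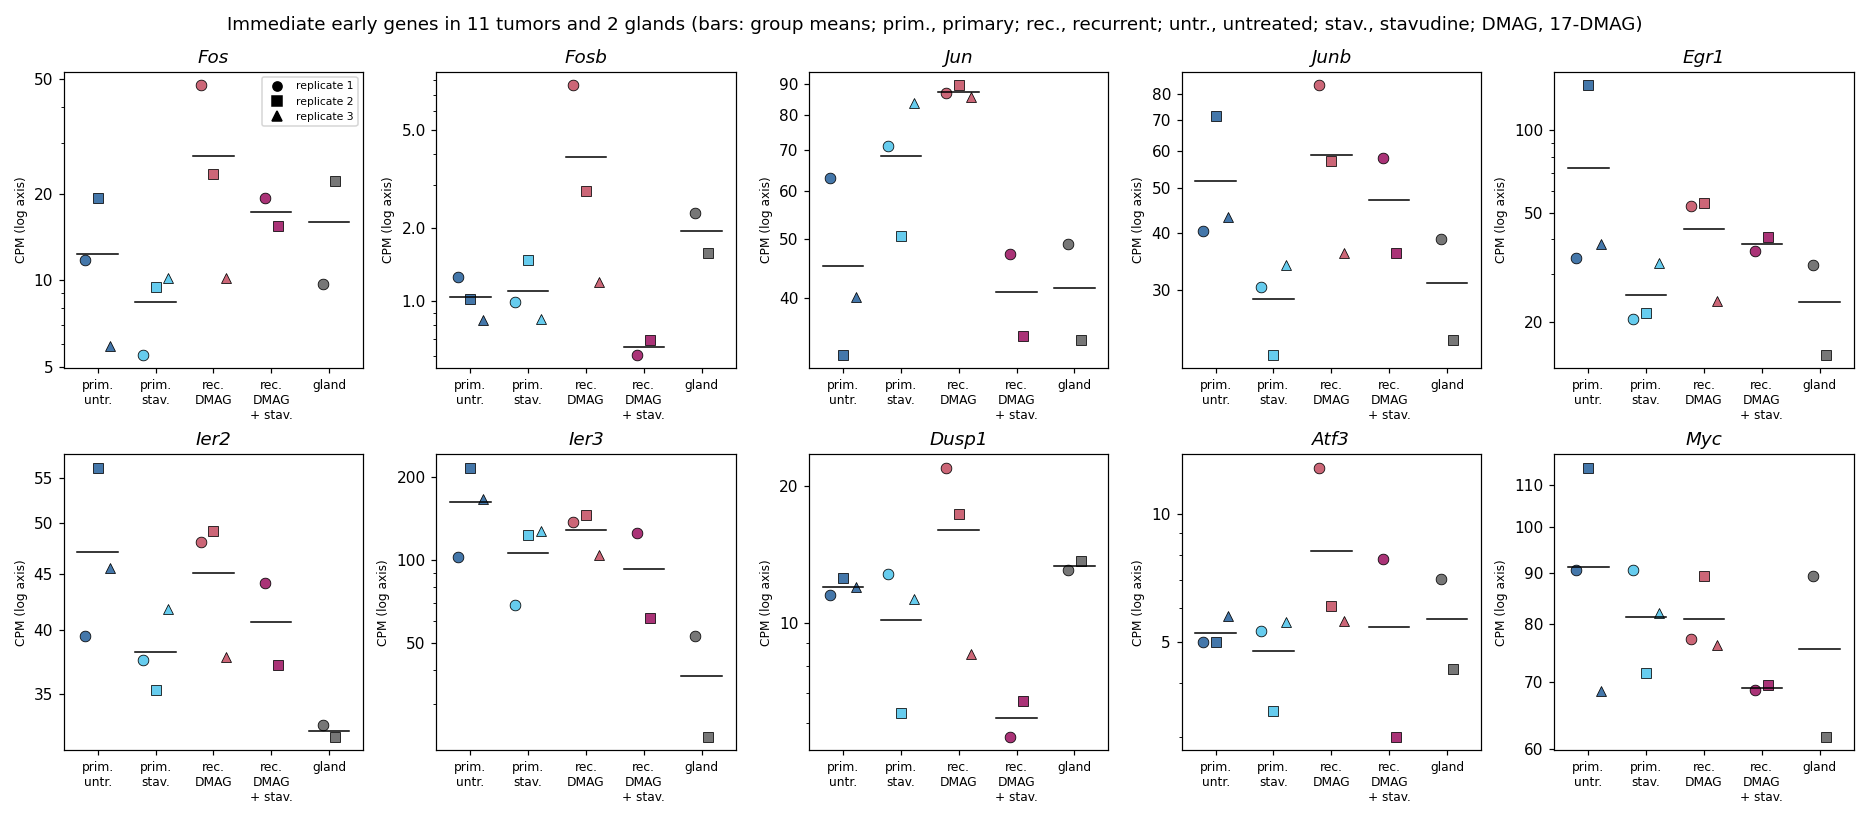
CPM (log axis) of the 10 immediate early genes in each library, by group; the marker shape gives the replicate number and horizontal bars are group means (n = 3, 3, 3, 2 and 2 from left to right). The 3 Jun values of the recurrent 17-DMAG tumors sit together at 85.8 to 89.5 CPM, whereas Fos spans 10.2 to 47.7 CPM in the same tumors.

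Fos encodes a bZIP factor that pairs with JUN proteins. Its gene lies at chr12:85473890-85477274 on the plus strand. Fos stood at 11.7, 19.3 and 5.87 CPM in primary untreated tumors and at 5.50, 9.44 and 10.2 CPM in primary stavudine tumors. It stood at 47.7, 23.4 and 10.2 CPM in recurrent 17-DMAG tumors, at 19.2 and 15.4 CPM in recurrent 17-DMAG plus stavudine tumors, and at 9.72 and 22.2 CPM in the glands. The group means ran from 27.1 ± 19.0 (SD, n = 3) in recurrent 17-DMAG to 8.38 ± 2.52 (SD, n = 3) in primary stavudine tumors, and neighboring groups overlapped throughout that order. A single tumor, recurrent 17-DMAG replicate 1, held the highest value of all libraries. The glands differed from each other: gland 2 exceeded all but 2 of the tumors, whereas gland 1 lay below most of them. The gland 2 value also rests on its TMM factor of 0.493.

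Fosb, the close relative of Fos at chr7:19302696-19310118 (minus strand), was the sparsest member. It stood at 1.25, 1.02 and 0.842 CPM in primary untreated and at 0.990, 1.48 and 0.844 CPM in primary stavudine tumors. In recurrent 17-DMAG tumors it stood at 7.64, 2.81 and 1.20 CPM, in recurrent 17-DMAG plus stavudine tumors at 0.606 and 0.693 CPM, and in the glands at 2.30 and 1.57 CPM. Both recurrent tumors kept on stavudine were therefore the lowest of all libraries, and replicates 1 and 2 of the recurrent 17-DMAG group the highest. Reads of Fos per read of Fosb were 31.7 and 22.2 in those recurrent 17-DMAG plus stavudine tumors and 5.56 to 18.9 in the other 9 tumors, so that the ratio within a library, which no scaling touches, set them apart as well.

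Jun, the main partner in AP-1, is an intronless gene at chr4:95049036-95052222 (minus strand). It stood at 62.9, 32.3 and 40.2 CPM in primary untreated, 71.1, 50.7 and 83.7 CPM in primary stavudine, and 86.8, 89.5 and 85.8 CPM in recurrent 17-DMAG tumors. In recurrent 17-DMAG plus stavudine tumors it stood at 47.3 and 34.7 CPM and in the glands at 49.1 and 34.2 CPM. The 3 recurrent 17-DMAG tumors held the 3 highest values of the series with almost no spread (87.4 ± 1.93, SD, n = 3), although the same 3 tumors differed widely in Fos. The primary stavudine mean (68.5 ± 16.7, SD, n = 3) came next and overlapped primary untreated (45.2 ± 15.9, SD, n = 3), which in turn overlapped the glands and the recurrent 17-DMAG plus stavudine tumors.

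Junb, which competes with Jun for the same partners, lies at chr8:84976909-84978748 (minus strand). It stood at 40.3, 71.6 and 43.4 CPM in primary untreated and at 30.5, 21.8 and 34.1 CPM in primary stavudine tumors. In recurrent 17-DMAG tumors it stood at 83.4, 57.3 and 36.1 CPM, in recurrent 17-DMAG plus stavudine tumors at 57.9 and 36.1 CPM, and in the glands at 38.8 and 23.4 CPM. All 3 primary stavudine tumors lay below all other tumors. Because Jun was not low in them, reads of Jun per read of Junb were 2.33, 2.33 and 2.46 in the primary stavudine tumors, and among the other 8 tumors only recurrent 17-DMAG replicate 3 (2.38) was as high, the rest running from 0.451 to 1.56.

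Egr1 encodes a zinc finger factor and is a direct target of ERK signaling. It stood at 34.3, 145 and 38.5 CPM in primary untreated and at 20.7, 21.6 and 33.0 CPM in primary stavudine tumors. In recurrent 17-DMAG tumors it stood at 53.1, 54.1 and 24.0 CPM, in recurrent 17-DMAG plus stavudine tumors at 36.2 and 40.8 CPM, and in the glands at 32.2 and 15.3 CPM. Primary untreated replicate 2 lay far above the next tumor, recurrent 17-DMAG replicate 2 at 54.1 CPM, and it was also the tumor in which Ier2, Ier3 and Myc were highest. The tumor with the most Fos, recurrent 17-DMAG replicate 1, had 1.11 reads of Egr1 per read of Fos, the lowest ratio among the tumors, whereas primary untreated replicates 2 and 3 had 7.54 and 6.55, so that the highest Fos and the highest Egr1 were found in different tumors.

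Ier2, a small nuclear protein gene at chr8:84661331-84662852 (minus strand), varied least. It stood at 39.5, 56.2 and 45.6 CPM in primary untreated, 37.5, 35.3 and 41.8 CPM in primary stavudine, and 48.1, 49.2 and 37.8 CPM in recurrent 17-DMAG tumors. It stood at 44.1 and 37.2 CPM in recurrent 17-DMAG plus stavudine tumors and at 32.8 and 32.0 CPM in the glands. The 4 tumor groups overlapped one another, and both glands lay below every tumor.

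Ier3, whose product modulates survival and ERK signaling, lies at chr17:35821713-35822911 (plus strand). It stood at 103, 216 and 167 CPM in primary untreated, 68.4, 123 and 127 CPM in primary stavudine, and 137, 146 and 104 CPM in recurrent 17-DMAG tumors. It stood at 125 and 61.4 CPM in recurrent 17-DMAG plus stavudine tumors and at 52.8 and 22.8 CPM in the glands. The tumor groups overlapped again. The gland values were 37.8 ± 21.2 CPM (SD, n = 2), below the lowest tumor.

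Dusp1, the phosphatase that shuts off MAP kinases, lies at chr17:26505591-26508472 (minus strand). It stood at 11.5, 12.6 and 12 CPM in primary untreated, 12.8, 6.31 and 11.3 CPM in primary stavudine, and 22, 17.4 and 8.54 CPM in recurrent 17-DMAG tumors. It stood at 5.59 and 6.71 CPM in recurrent 17-DMAG plus stavudine tumors and at 13.1 and 13.7 CPM in the glands. Both recurrent tumors on stavudine were below all recurrent 17-DMAG tumors, and 1 primary stavudine tumor (6.31 CPM) was as low as they were.

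Atf3, a stress-induced bZIP repressor gene at chr1:191170296-191183333 (minus strand), stood at 5.00, 5.01 and 5.77 CPM in primary untreated, 5.32, 3.44 and 5.57 CPM in primary stavudine and 12.9, 6.08 and 5.60 CPM in recurrent 17-DMAG tumors. It stood at 7.86 and 3.0 CPM in recurrent 17-DMAG plus stavudine tumors and at 7.03 and 4.32 CPM in the glands. All neighboring groups overlapped, and only recurrent 17-DMAG replicate 1 lay far above the rest.

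Myc, the growth regulator at chr15:61985341-61990361 (plus strand), stood at 90.5, 115 and 68.6 CPM in primary untreated, 90.5, 71.4 and 81.9 CPM in primary stavudine and 77.2, 89.3 and 76.2 CPM in recurrent 17-DMAG tumors. It stood at 68.7 and 69.5 CPM in recurrent 17-DMAG plus stavudine tumors and at 89.2 and 61.7 CPM in the glands. The highest tumor was 1.67 times the lowest, against 12.6 times for Fosb, 8.66 times for Fos and 7.03 times for Egr1.

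Read tumor by tumor, 3 tumors carried most of the high values. Recurrent 17-DMAG replicate 1 was the highest tumor for 5 members (Fos, Fosb, Junb, Dusp1 and Atf3) and among the 3 highest for 8. Recurrent 17-DMAG replicate 2 was among the 3 highest for 8 members as well, and primary untreated replicate 2 was the highest for 4 and among the 3 highest for 6. The third recurrent 17-DMAG tumor was among the 3 highest for 1 member, Jun, so the tumors of this group differed from one another. Recurrent 17-DMAG plus stavudine replicate 2 was among the 3 lowest for 7 members and primary stavudine replicate 2 for 6. In recurrent 17-DMAG replicate 1, the highest tumor for the most members, fibroblast, macrophage and endothelial markers were also highest. So were leukocyte (156 against at most 91.2 CPM) and neutrophil markers (14.1 against at most 8.22 CPM). Its epithelial markers were as high as in any other tumor (2662 against at most 2598 CPM). Replicate 2 of that group, equal to it in members among the 3 highest, did not share this. Its fibroblast markers summed to 328 CPM, its macrophage markers to 121 CPM and its endothelial markers to 61.4 CPM, the last being the lowest of any tumor. The part of those cells in the values of either tumor was not tested. All listed fibroblast, macrophage, endothelial and leukocyte markers were detected in all 11 tumors, and all 4 neutrophil markers in 3. For Fosb in recurrent 17-DMAG replicate 1, 330 reads stood against 31 to 126 in the other tumors.

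**Figure D2:**
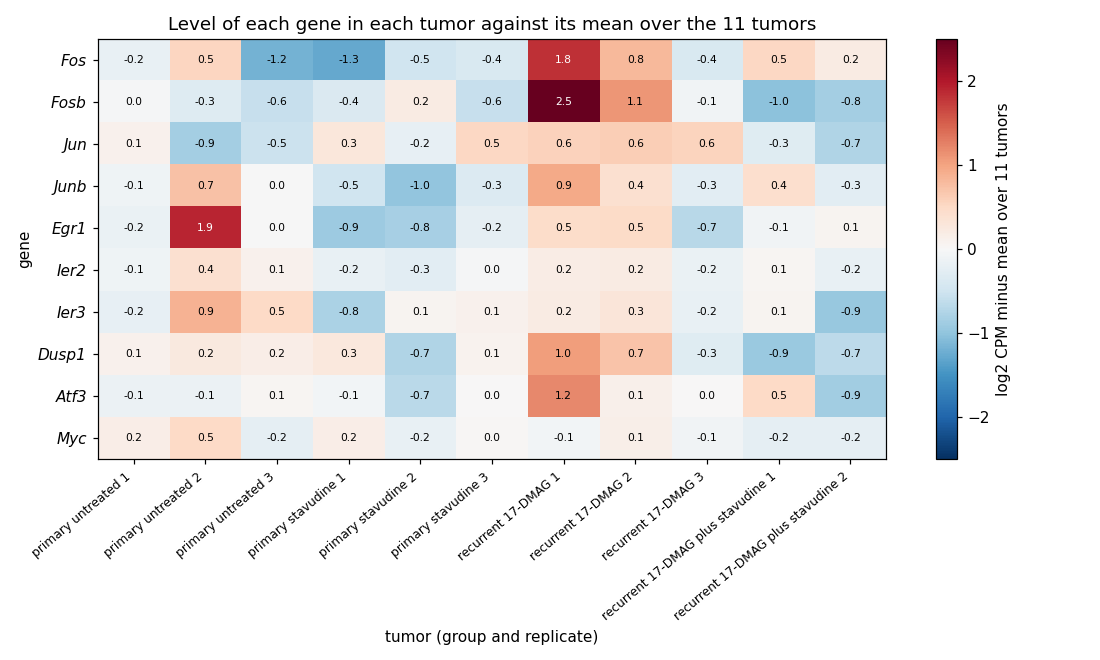
Log2 CPM of each immediate early gene (rows) in each tumor (columns) minus the gene's mean over the 11 tumors; red is above and blue below that mean. Recurrent 17-DMAG replicate 1 is red for Fos and Fosb, and primary untreated replicate 2 is red for Egr1 but blue for Jun.

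The spread between tumors of one group was wide for Fos, Fosb and Egr1 and narrow for Jun, Myc and Ier2. The biological coefficient of variation, the part of a gene's relative spread that counting does not account for, was 0.523 for Fosb, 0.481 for Fos and 0.458 for Egr1. It was 0.396 for Atf3, 0.332 for Dusp1, 0.312 for Ier3, 0.308 for Junb and 0.240 for Jun, and least for Myc (0.184) and Ier2 (0.176). In all, 7 of 10 members lay above the median of all genes tested (0.276), and the median of the members was 0.322. A coefficient near 0.5 with 2 or 3 tumors a group leaves wide intervals, as the plot of fold changes shows.

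Over the 11 tumors, Fos was set against each of the other 9 members on the log2 CPM scale. Junb followed it most closely (Pearson r = 0.77, two-sided permutation p = 0.00588, adjusted over the 9 relations 0.0529; Spearman rho = 0.81, permutation p = 0.00409, adjusted 0.0213). Egr1 came next, with r = 0.59 (permutation p = 0.0602, adjusted 0.153) and rho = 0.80 (permutation p = 0.00473, adjusted 0.0213). Without the tumors farthest from the median of Fos, recurrent 17-DMAG replicate 1 and primary stavudine replicate 1, r was 0.62 for Junb and 0.55 for Egr1. The calls by rank were fragile: leaving out each tumor in turn gave between 0 and 3 relations with an adjusted p under 0.05, and 0 without primary untreated replicate 2, primary stavudine replicate 1, recurrent 17-DMAG replicate 1 or 2, or either recurrent 17-DMAG plus stavudine tumor.

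Fosb, the nearest relative of Fos, had r = 0.65 (permutation p = 0.0356, adjusted 0.153), which fell to 0.22 without the same pair of tumors, and rho = 0.33 (permutation p = 0.328, adjusted 0.492). The Fosb relation thus rested on those tumors. Ier2 had r = 0.54 and rho = 0.62 (permutation p = 0.0835 and 0.0478, adjusted 0.153 and 0.143), and Atf3 had r = 0.54 and rho = 0.38 (permutation p = 0.0851 and 0.248, adjusted 0.153 and 0.492). Jun, the textbook partner of Fos, had r = 0.14 and rho = 0.18 (permutation p = 0.693 and 0.595, adjusted 0.733 and 0.669). Myc had r = 0.11 (permutation p = 0.733), Ier3 r = 0.29 (permutation p = 0.382) and Dusp1 r = 0.34 (permutation p = 0.307). Genes of 1 library share its handling, depth and tissue mixture, and groups of 2 or 3 tumors were too small to repeat the relation within them.

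**Figure D3:**
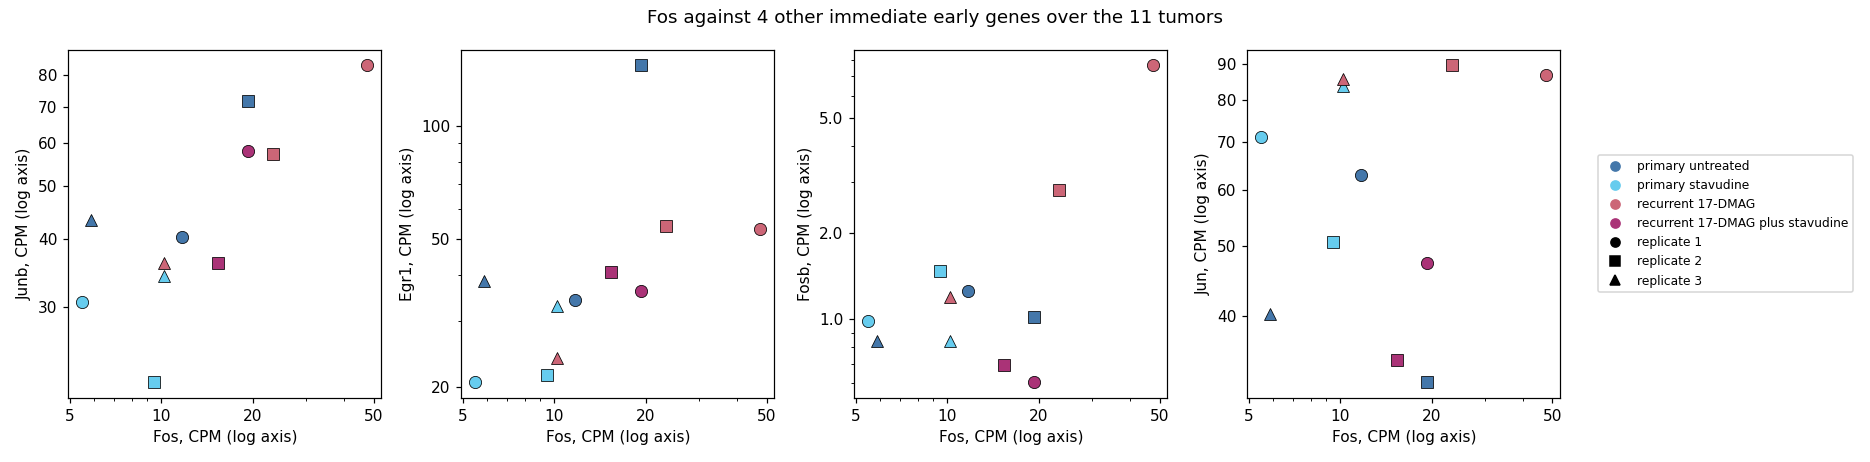
CPM of Fos (horizontal, log axis) against CPM of Junb, Egr1, Fosb and Jun (vertical, log axes) in the 11 tumors, colored by group and shaped by replicate. Junb climbs with Fos (rho = 0.81), Fosb is set by recurrent 17-DMAG replicate 1 at 7.64 CPM, and Jun shows no order (rho = 0.18).

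The contrast of tumors with glands asked whether the set stands higher in cancer than in the tissue it arises from. Ier3 was the only member that passed: it was higher in tumors by 1.66 on the log2 scale (SE 0.43; edgeR adjusted p = 0.036; higher in 11 of 11 tumors than in either gland). The background was 10.4% of 17135 genes called, with 1.6% called higher in tumors. Ier2, likewise without overlap, was higher by 0.40 (SE 0.16; edgeR adjusted p = 0.126). An unadjusted p under 0.05 was reached by 2 of 10 members (29.6% of all genes) and groups without overlap were seen for 2 of 10 (11.5% of all genes). The members' median log2 difference was 0.24 beside -0.02 over all genes, with 7 of 10 higher, and the remaining differences ran from -0.57 for Fosb to 0.82 for Egr1.

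The Ier3 call was a narrow one in edgeR. DESeq2, which called 3242 of 17135 genes in this contrast, gave Ier3 a difference of 1.64 (DESeq2 adjusted p = 0.000788). The changes that follow are those of the edgeR fit. Without gland 2 the difference was 1.27 (edgeR adjusted p = 0.276) and without gland 1 it was 2.43, and the call also ended, with differences of 1.53 to 1.70, when any 1 of 6 tumors was left out (primary untreated replicate 3, primary stavudine replicates 2 and 3, recurrent 17-DMAG replicates 2 and 3, and recurrent 17-DMAG plus stavudine replicate 1). Adipocyte markers summed to 759 and 643 CPM in the glands against at most 85.6 CPM in the tumors, smooth muscle and myoepithelial markers to 238 and 877 against at most 192 CPM, and B cell markers to 114 and 2.18 against at most 1.53 CPM. The part of those cells in the gland levels was not tested.

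Stavudine against no treatment in primary tumors asked what the drug alone did to these genes. Differences were moderate in size and none passed: 0 of 10 members, as 0 of 16870 genes (0%), reached an adjusted p under 0.05 in edgeR, while DESeq2 called 17 genes and 0 members. At an unadjusted p under 0.05 stood 3 of 10 members, against 3.76% of all genes. Egr1 was lower under stavudine (log2 change -1.55, SE 0.55, edgeR adjusted p = 1.00) and Junb lower (log2 change -0.86, SE 0.35, edgeR adjusted p = 1.00), while Jun was higher by 0.59 (SE 0.25, edgeR adjusted p = 1.00). Egr1 and Junb did not overlap between the groups, which held for 10.9% of all genes. Primary untreated replicate 2 weighed on these values: without it Egr1 stood at -0.53, Junb at -0.53 and the members' median at -0.16. Jun stood at 0.90 without primary untreated replicate 1. Endothelial markers also separated the groups, at 61.6 to 98.5 CPM under stavudine against 102 to 127 CPM untreated, and their part was not tested. The members' median was -0.29 beside -0.03 for all genes.

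Recurrence after 17-DMAG, without stavudine, was read against primary untreated tumors. Jun was higher in recurrent tumors by 0.94 (SE 0.26, edgeR adjusted p = 0.509), with all 3 recurrent tumors above all 3 primary tumors, and Fosb was higher by 1.89 (SE 0.60, edgeR adjusted p = 0.509). Neither passed. In all, 0 of 10 members and 0 of 16870 genes (0%) were called by edgeR, and DESeq2 called 61 genes and 0 members. An unadjusted p under 0.05 was seen for 2 of 10 members against 9.69% of all genes, and absence of overlap for 1 of 10 against 15.4%. Fosb depended on 1 tumor, since without recurrent 17-DMAG replicate 1 its difference was 0.95, whereas the lowest value for Jun with any library left out was 0.76. The median of the members was 0.28 (all genes -0.01) and 0.00 without that tumor. Leukocyte markers also separated the groups, at 56.7 to 156 CPM in recurrent against 48.8 to 53.7 CPM in primary tumors, and their part was not tested.

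Recurrent against primary tumors of mice given stavudine gave another arrangement. Jun was lower in the recurrent tumors (log2 change -0.74, SE 0.29, edgeR adjusted p = 0.461), the only member of 10 with an unadjusted p under 0.05 (10.1% of all genes). Groups did not overlap for 6 of 10 members, Fos, Junb and Egr1 being higher and Fosb, Jun and Myc lower in the recurrent tumors. That share stood beside 35.3% of all genes, a comparison of 2 tumors with 3. No member was called in edgeR (0% of all genes) or DESeq2, which called 331 genes. The fitted differences that did not overlap were 1.05 for Fos, 0.71 for Junb, 0.62 for Egr1, -0.76 for Fosb and -0.23 for Myc. The median over the members, -0.05, was -0.42 without replicate 1 of the recurrent 17-DMAG plus stavudine tumors and 0.22 without replicate 2, so that it had no firm sign. Markers of other cells separated the same groups: summed levels were 1379 and 1801 CPM in the recurrent against 239 to 634 CPM in the primary tumors for fibroblasts, 175 and 209.6 against 113 to 129.6 CPM for macrophages, 75.8 and 91.2 against 46.0 to 57.3 CPM for leukocytes, 7.86 and 8.22 against 2.39 to 2.99 CPM for neutrophils, and 54.5 and 192 against 22.8 to 46.7 CPM for smooth muscle and myoepithelium. Epithelial markers were lower, at 1242 and 2042 against 2097 to 2453 CPM. Their part in the members' differences was not tested.

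Among recurrent tumors, all 10 members had a lower fitted level with stavudine than without, from -0.14 for Ier2 to -2.57 for Fosb, with a median of -0.52 (all genes 0.00). Jun was lower (log2 change -1.08, SE 0.29, edgeR adjusted p = 0.361), as were Fosb (log2 change -2.57, SE 0.72, edgeR adjusted p = 0.390) and Dusp1 (log2 change -1.37, SE 0.41, edgeR adjusted p = 0.413). These 3 of 10 stood beside 7.84% of all genes at an unadjusted p under 0.05. With Myc they were the 4 of 10 members without overlap, beside 21.7% of all genes. By edgeR 0 members and 0 genes (0%) were called. DESeq2 called 277 genes, Fosb (adjusted p = 0.0169), Jun (adjusted p = 0.0338) and Dusp1 (adjusted p = 0.0488) among them. Recurrent 17-DMAG replicate 1 weighed on the result: without it the members' median was -0.18 and Fosb stood at -1.62, while without replicate 1 of the group on stavudine the median was -0.95. The 3 recurrent contrasts share tumors, so they are not independent of one another. Epithelial markers also separated these groups, at 1242 and 2042 CPM with stavudine against 2126 to 2662 CPM without, and skeletal muscle markers stood at 1325 CPM in recurrent 17-DMAG plus stavudine replicate 2, the tumor among the 3 lowest for 7 members, against at most 402 CPM without stavudine. Their part in the result was not tested.

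**Figure D4:**
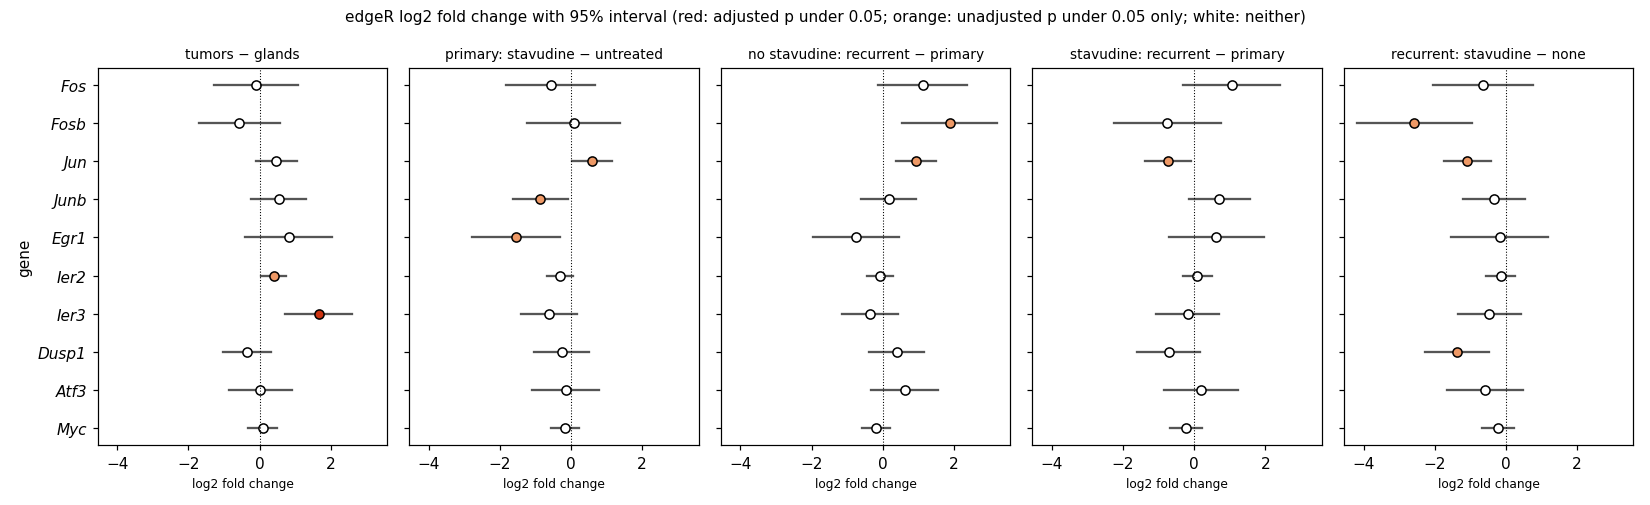
Log2 fold change (horizontal) of each immediate early gene in 5 contrasts with its 95% interval from edgeR; points are filled red at an adjusted p under 0.05, orange at an unadjusted p under 0.05 only, and white otherwise. Only Ier3 in tumors against glands (1.66) is red, and all 10 points lie left of 0 in recurrent tumors with against without stavudine.

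Whether the difference between recurrent and primary tumors itself depended on stavudine was tested as an interaction. Jun gave -1.67 (SE 0.39, edgeR adjusted p = 0.435) and Fosb -2.65 (SE 0.91, edgeR adjusted p = 0.538). They were the 2 of 10 members at an unadjusted p under 0.05, beside 7.84% of all genes, and 0 members and 0 genes (0%) were called by edgeR. DESeq2 called 189 genes, with Jun the 1 member among them (log2 change -1.70, adjusted p = 0.0134). An F test for any difference over the 4 tumor groups gave Fosb (edgeR adjusted p = 0.518), Jun (edgeR adjusted p = 0.518) and Dusp1 (edgeR adjusted p = 0.568), 3 of 10 members beside 8.54% of all genes, with 0 genes (0%) called. DESeq2 called 534 genes in that test, Fosb (adjusted p = 0.0146) and Jun (adjusted p = 0.0272) among them.

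Other immediate early genes were examined as a list of 47, all tested. Against glands, 3 were higher in tumors, namely Cebpb (log2 change 0.72, edgeR adjusted p = 0.0146), Trib1 (1.25, edgeR adjusted p = 0.0266) and Errfi1 (1.17, edgeR adjusted p = 0.0368), the last a feedback inhibitor of HER2 family receptors. Lower in tumors were 4, Gadd45g (-3.58, edgeR adjusted p = 0.00265), Nfkbia (-1.27, edgeR adjusted p = 0.00356), Klf2 (-1.67, edgeR adjusted p = 0.00627) and Dusp2 (-2.83, edgeR adjusted p = 0.0162). Dusp2 stood at 5.33 CPM in gland 1 but at 0.678 CPM in gland 2, within the tumor range (0.131 to 0.795 CPM). Its difference thus rested on gland 1. The list thus went both ways, with a median of -0.07. The 7 of 47 called stood beside 10.4% of all genes. Among tumors 0 of the 47 were called in edgeR. At an unadjusted p under 0.05 stood 1 of 47 for stavudine in primary tumors (3.76% of all genes), 13 for recurrent 17-DMAG against primary untreated tumors (9.69%), 11 for the contrast under stavudine (10.1%) and 11 among recurrent tumors (7.84%). The wider list had a median of 0.37 for recurrent 17-DMAG against primary untreated tumors (36 of 47 higher), 0.41 for the contrast under stavudine (31 higher) and -0.31 for recurrent tumors with against without stavudine (33 of 47 lower). Its median for stavudine in primary tumors was -0.20 (30 lower). In the 2 contrasts of recurrent 17-DMAG tumors its median had the sign of the members' median, and under stavudine it did not. All of these stood beside medians of -0.03 to 0.01 over all genes.

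The kinases and factors upstream of these promoters went both ways. Of 15 genes (Srf, 3 Elk genes, Creb1, Crem and 9 kinase genes), Mapk3, which encodes ERK1, was called higher in tumors than glands (log2 change 0.78, edgeR adjusted p = 0.0169). That was 1 of 15, beside 10.4% of all genes called against glands. Among tumors 0 were called by edgeR (at most 2 at an unadjusted p under 0.05, beside 3.76% to 10.1% of all genes), and the list medians there lay between -0.06 and 0.07. Of 16 bZIP and MAX partners 0 were called in any contrast by edgeR, beside 10.4% of all genes against glands. At an unadjusted p under 0.05 in edgeR stood 4 against glands (29.6% of all genes) and at most 3 among tumors (3.76% to 10.1% of all genes). Jund, the third JUN gene, was lower in recurrent tumors with stavudine than without (log2 change -0.64, edgeR adjusted p = 0.378).

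Of 10 heat shock genes, which both tissue handling and HSP90 inhibition are known to induce, Hspb1 was called higher in tumors than glands (log2 change 0.62, edgeR adjusted p = 0.0489). That was 1 of 10, beside 10.4% of all genes called against glands. Among tumors 0 were called by edgeR, with 1 or 2 at an unadjusted p under 0.05 (3.76% to 10.1% of all genes). The list's median was 0.37 for recurrent against primary tumors under stavudine (10 of 10 higher), 0.25 without stavudine (8 of 10 higher) and 0.23 for recurrent tumors with against without stavudine (8 of 10 higher), a contrast in which all 10 immediate early genes were lower. The medians of all genes in these 3 contrasts were 0.01, -0.01 and 0.00. The list's median was 0.07 for stavudine in primary tumors and -0.06 against glands. Hspb1 stood at 41.0 and 58.2 CPM in the recurrent 17-DMAG plus stavudine tumors and at 12.8 to 24.1 CPM in the other tumors (against primary stavudine, log2 change 1.41, edgeR adjusted p = 0.154). Hspb1 was thus highest in the tumors where Fosb was lowest. Its call against glands did not hold for each tumor group. The primary untreated tumors (15.3, 13.7 and 12.8 CPM) overlapped gland 1 (14.1 CPM) and gland 2 (16.2 CPM). Primary stavudine tumors (16.1 to 22.7 CPM) overlapped them as well, whereas every recurrent tumor, at 21.8 CPM or more, exceeded both glands. Hspa1b was highest in recurrent 17-DMAG replicate 1 (44.7 CPM, against 19.1 to 41.7 CPM in the other tumors), the tumor with the most Fos. Its near-identical copy Hspa1a was highest in another tumor, recurrent 17-DMAG plus stavudine replicate 1 (19.7 CPM, against 16.5 CPM in recurrent 17-DMAG replicate 1). Reads may be split between these copies.

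The genes most like the set were taken as those with the highest Pearson r, over the 11 tumors, to the mean standardized log2 CPM of the members. They were Maff (0.95), Nfkbiz (0.94), Adgre4 (0.94), Mirc35hg (0.94), Clmn (0.93), Zc3hav1l (0.93), Foxo1 (0.91), Mnt (0.91), Sestd1 (0.91) and Ppp1r15a (0.90). Maff, Nfkbiz and Ppp1r15a belong to the wider list of immediate early genes and Mnt to the MAX partners. Maff stood at 14.5 CPM in recurrent 17-DMAG replicate 1 and 9.50 CPM in primary untreated replicate 2, and at 2.55 to 6.37 CPM in the other tumors. That pair of tumors held the highest value of 9 of the 10 members, all but Jun. Of the members themselves, Junb (0.87) and Ier2 (0.85) were closest to the shared pattern, and Jun (0.28) was the least like it. Each member is part of the mean it was compared with, which raises its r, so these values cannot be set beside those of the other genes.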

How the data were processed

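The values used were read counts per gene, deposited by the authors in 1 table with a column per library and no normalization. The submitters' processing notes name bcl2fastq 2.20 and featureCounts of Subread 1.6.2, and the study's methods name STAR, the UCSC mm10/GRCm38 genome and annotation, and DESeq2 for the authors' own comparisons. Libraries were stranded and depleted of ribosomal RNA. The strand setting of the counting and the treatment of reads mapping to several places are not given in the sources used here, so reads of a gene and of a transcript antisense to it cannot be told apart.

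Counts were tested in R 4.3.3 with edgeR 4.0.16 (filterByExpr, TMM factors, robust quasi-likelihood test, two-sided). The gland contrast was fitted on 13 libraries and 17135 genes, and the other 6 on 11 tumors and 16870 genes, because groups of 2 or 3 share 1 estimate of spread. Adjustment was by the Benjamini-Hochberg method over all genes of a contrast, with calls at an adjusted p under 0.05. CPM in the text used TMM factors from all 13 libraries. Correlations used log2 CPM of the tumor fit with a prior count of 2 and 100000 permutations. The tests were checked on simulated data with known changes. Alternatives were DESeq2 1.42.0, its size factors in edgeR, library totals alone, no filter on low counts, removal of milk, muscle and adipocyte genes, fits on the compared groups alone, a replicate block and each library left out.

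All 10 members are described. A fold change with its adjusted p is given for members with an unadjusted p under 0.05, and otherwise for the one with the smallest p. From each of the 4 wider lists the 3 genes with the smallest p in a contrast could be named. The other genes that were called against glands (Cebpb, Trib1, Errfi1 and Dusp2) and the values of fitted differences at the ends of a range were named after their values were seen. The members and the lists were chosen with earlier results of these data known. Positions and promoters are from RefSeq on GRCm38.p6, and exon lengths per gene are the union of protein-coding transcripts of GENCODE. Reads were counted without molecular identifiers and are not separate molecules, so the floor covers counting error alone.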

Additional observations from a re-analysis of the deposited data

Results flagged for a closer look

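For Jun, the difference between recurrent and primary tumors ran in opposite directions with and without stavudine: all 3 recurrent 17-DMAG tumors lay above all 3 primary untreated tumors (log2 change 0.94), and both recurrent 17-DMAG plus stavudine tumors lay below all 3 primary stavudine tumors (log2 change -0.74). The test of the difference itself gave -1.67 on the log2 scale (SE 0.39, edgeR adjusted p = 0.435 over 16870 genes), which did not pass, whereas DESeq2 gave -1.70 with an adjusted p of 0.0134. Over all alternatives the adjusted p ran from 0.0134 to 1.00 and the value from -1.99 to -1.50. No test for a single outlying value was run within groups of 2 or 3 libraries.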

How the results depend on the processing

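Of 236 recomputed values for the 13 differences of single members named above, 222 kept their direction and their side of the threshold, 10 lost the threshold (all of them Ier3 against glands), 4 gained it (DESeq2) and 0 turned round. Ier3 against glands was the only difference called in the main fit, and it lost the call in 10 of 20 alternatives. The other differences began without a call, so keeping their side of the threshold says little about them. Against glands, edgeR called 0 members in place of 1 with primary untreated tumors as the only tumors (Ier3 2.10, adjusted p = 0.0546), with library totals alone (Ier3 1.83, adjusted p = 0.118) and with each library left out in turn (0 to 1). Library totals alone also raised the members' median against glands to 0.63, together with that of all genes, from -0.02 to 0.37. DESeq2 called 3 members in recurrent tumors with against without stavudine, 1 in the interaction and 2 over the 4 tumor groups. It called 277, 189 and 534 of all 16870 genes in the same order. EdgeR called 0 members and 0 genes in each of these, so the rise was not particular to the members. With each library left out, the members' median ran from -0.42 to 0.22 under stavudine, from -0.95 to -0.18 among recurrent tumors and from -0.38 to 0.14 in the interaction, and the relations with Fos passing by rank from 0 to 3.

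The labels number replicates alike in each group, but the numbers did not pair the samples: correlations of same-numbered deviations ran from -0.259 to 0.187 and no contrast had every pair above 0.1. With the replicate number as a block, Ier3 against glands was 1.67 (edgeR adjusted p = 0.102), so that 0 members were called in place of 1, and no other call changed. Groups of 2 or 3 tumors and a coefficient of variation near 0.5 for Fos, Fosb and Egr1 limited what these contrasts could show, while depth did not, with 31 reads or more for each member.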
